A study of Rattus norvegicus with 18 samples.

Results

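A set of 9 genes of the extracellular matrix (ECM) and its remodeling were described over the 6 groups of a rat bladder RNA-Seq experiment. The members were the 9 of 32754 counted genes whose Ensembl rat identifiers were listed as Col1a1 (ENSRNOG00000003897), Col1a2 (ENSRNOG00000011292), Col3a1 (ENSRNOG00000003357), Fn1 (ENSRNOG00000014288), Mmp2 (ENSRNOG00000016695), Timp1 (ENSRNOG00000010208), Lox (ENSRNOG00000014426), Tgfb1 (ENSRNOG00000020652) and Ccn2 (also called Ctgf, ENSRNOG00000015036). They were listed by name, with earlier results of these data known. The animals were wild-type male Sprague Dawley rats. Their age is given as 6 to 7 weeks, which the study's methods state for the surgery. The injured rats were thus older when tissue was taken at the end of treatment, and the study calls its Controls age-matched. The spinal cord was cut completely at the T8 vertebra, and the injured rats were then injected intraperitoneally each day with 225 mg/kg of inosine, a naturally occurring nucleoside (SCI-inosine) or the 12 mM sodium bicarbonate vehicle (SCI-vehicle) for 8 weeks. Control rats were uninjured and had no treatment. Bladders were dissected into detrusor, the smooth muscle layer, and mucosa, the urothelium with its lamina propria, and each of the 6 combinations of tissue and condition gave 3 libraries, 18 in all.

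The ECM of the bladder wall is built mainly by fibroblasts and smooth muscle cells. Fibrillar collagens of types I and III give the wall its tensile strength, fibronectin links cells to collagen, and lysyl oxidase crosslinks the fibers. Gelatinase A (Mmp2) and other metalloproteinases degrade the matrix, TIMP-1 inhibits them, and TGF-β1, with the matricellular protein CCN2 acting downstream of it, is known for inducing matrix genes in fibrosis.

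The values are read counts, shown as CPM, the count scaled to a common library total, after TMM scaling, a correction for differences in RNA composition between libraries. Total counts ranged from 3255012 to 6810496 per library. The share of the other tissue, estimated from genes over 4-fold higher in one control tissue, was 25.9% in detrusor SCI-vehicle replicate 1 and 1.59% to 2.33% in the other SCI-vehicle detrusor libraries. It was 3.94% to 10.2% in SCI-inosine detrusor, -1.59% to 1.17% in Control detrusor and -5.45% to 10.8% in mucosa. In detrusor SCI-inosine replicate 2, reads fell on 14126 genes, against 16475 to 17842 in the other detrusor libraries. The study describes the replicates as biological, the sources do not say whether detrusor and mucosa libraries of the same number came from the same bladder, and all libraries carry the label batch 1. The labelled tissues could not be checked against marker genes, because the identifiers were not paired with gene names.

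Of the 9 members, 8 passed the filter of more than 1 CPM in at least 3 libraries. The exception was the row listed as Col1a2, the second chain of type I collagen. It had 1 read in each of 3 libraries (detrusor Control replicate 1, mucosa Control replicate 3 and mucosa SCI-inosine replicate 3) and 0 in the other 15. Where the count was 0, a floor of 3 reads allows at most 0.446 to 0.877 CPM, for counting error only. Col1a1, the chain with which it assembles, had at least 4783 CPM in every library. No test was made on the Col1a2 row, and all counts of members below are out of 8.

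Within each tissue, no member passed an adjusted p-value of 0.05 in edgeR's quasi-likelihood test in any comparison of conditions. In detrusor of SCI-vehicle rats 7 of 8 were above Control (median log2 fold change 0.38, against 0.01 over all genes tested). In mucosa of SCI-vehicle rats 7 of 8 were below Control, with a median of -0.47 against -0.0039 over all genes. In mucosa of SCI-inosine rats all 8 were above SCI-vehicle (median 0.47, all genes -0.0011), and 2 of 8 were above Control (median -0.07). Since the SCI-vehicle libraries enter both comparisons, the position below Control and the distance from SCI-inosine are not separate measurements. In detrusor, SCI-inosine had a median of 0.27 against Control (all genes -0.0067) with 5 of 8 above it. Against SCI-vehicle the median was -0.19 (all genes -0.030), with 2 of 8 above it. Over the comparisons of conditions within a tissue, 45.9% to 51.2% of all genes tested had a log2 fold change above 0.

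**Figure D1:**
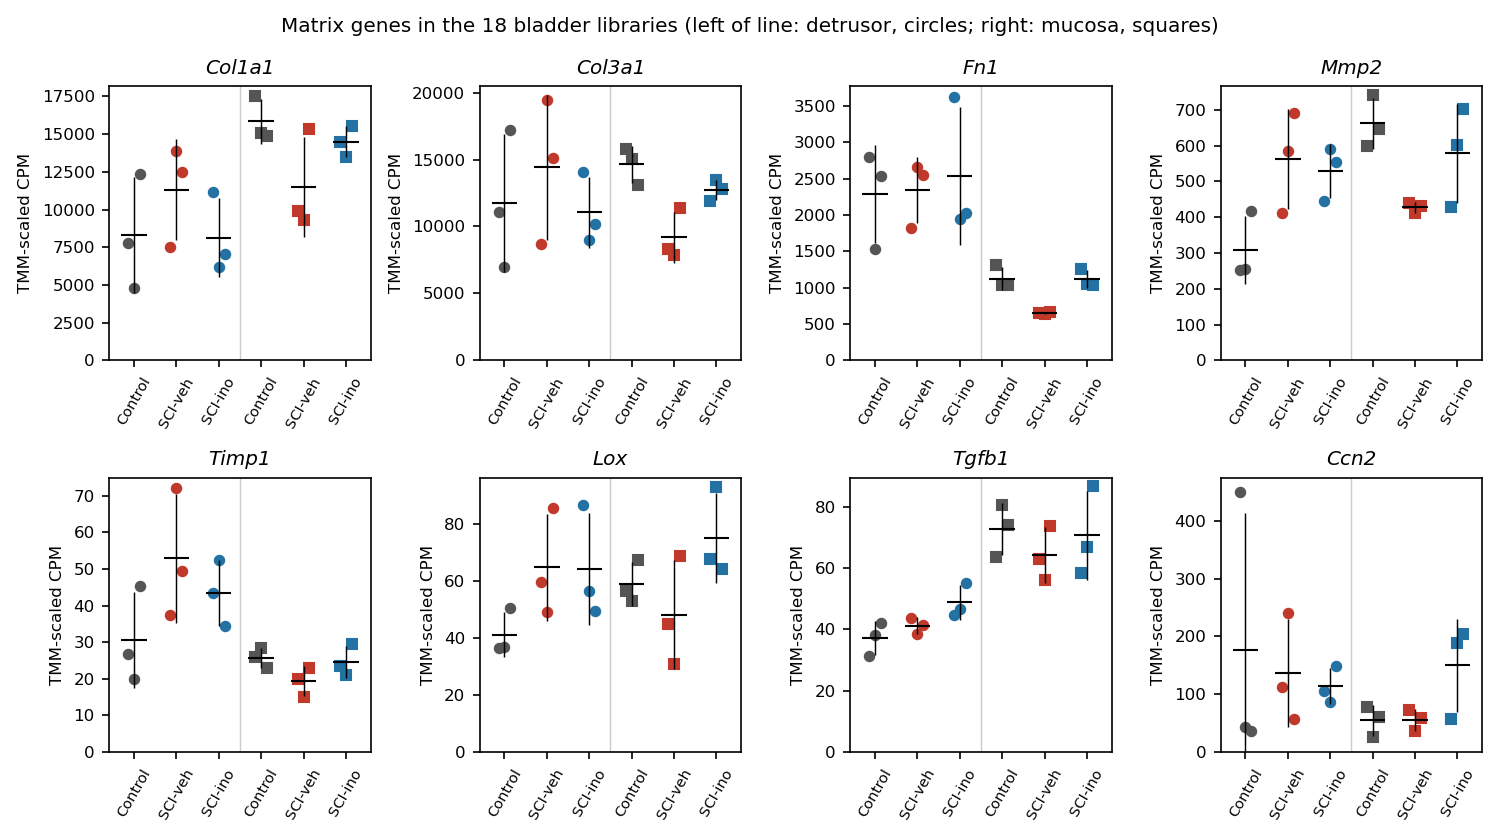
Level of each tested member in every library, in TMM-scaled CPM on linear axes from 0, with detrusor (circles) left of the line and mucosa (squares) right of it. Each point is a library, the horizontal bar the mean of 3 libraries and the vertical bar 1 SD, which is clipped at 0 for Ccn2. Fn1 in mucosa of SCI-vehicle rats lies between 639 and 668 CPM in all 3 libraries, below every other library.

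Type I collagen, the main fiber of the matrix, is represented by Col1a1, whose detrusor Control libraries had 7769, 4783 and 12372 CPM in replicates 1, 2 and 3. In detrusor of SCI-vehicle rats Col1a1 had 7528, 13891 and 12494 CPM, and in SCI-inosine 11149, 6205.5 and 7077 CPM. The detrusor groups overlapped, with the highest Control library 2.59-fold above the lowest. In mucosa, Col1a1 had 17536, 15091 and 14879.8 CPM in Control libraries, and 9901, 9309 and 15334 CPM in SCI-vehicle. Replicate 3 of SCI-vehicle lay within the Control range and the other 2 libraries below it. With inosine the mucosa libraries had 14483, 13464 and 15509.8 CPM, a range that overlapped both other groups. The log2 fold change of SCI-vehicle against Control in mucosa was -0.48 (SE 0.21, adjusted p = 0.465). Ordered by mean, the levels ran from mucosa Control (15836 CPM) over mucosa SCI-inosine, mucosa SCI-vehicle, detrusor SCI-vehicle and detrusor Control to detrusor SCI-inosine (8144 CPM), and each group overlapped the next. In the RefSeq annotation Col1a1 overlaps Sgca, and whether the counting used the strand is not given in the sources used here.

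Type III collagen, the partner of type I in distensible tissues, is encoded by Col3a1. Its detrusor libraries had 11053, 6950.2 and 17187 CPM for Control, 8684, 19439.8 and 15131 CPM in SCI-vehicle, and 14040.1, 8978 and 10190.1 CPM in SCI-inosine. As for Col1a1, the detrusor groups overlapped and the lowest SCI-vehicle library was replicate 1. In mucosa, Col3a1 had 15811, 15024 and 13136 CPM for Control, 8309, 7866 and 11393 CPM in SCI-vehicle, and 11939, 13446 and 12770.3 CPM in SCI-inosine. All 3 SCI-vehicle mucosa libraries lay below all libraries of both other groups. Col3a1 was 1.62-fold lower in SCI-vehicle than in Control mucosa (log2 fold change -0.70, SE 0.18), which did not pass edgeR's quasi-likelihood test (adjusted p = 0.319) and passed with DESeq2 (adjusted p = 0.0266). SCI-inosine was 1.40-fold above SCI-vehicle (log2 fold change 0.48, SE 0.18, adjusted p = 0.881). Together the rows of Col1a1 and Col3a1 took 0.959% to 2.70% of all counts in detrusor libraries and 2.10% to 3.80% in mucosa libraries.

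Fibronectin, the adhesive glycoprotein encoded by Fn1, showed the smallest p-values of the members in both mucosa comparisons with SCI-vehicle. In mucosa, Fn1 had 1310.0, 1037 and 1032 CPM for Control, 654, 639 and 668 CPM in SCI-vehicle, and 1256, 1046 and 1043 CPM in SCI-inosine. The SCI-vehicle libraries spread by 1.05-fold and lay well below the other 6 mucosa libraries, which overlapped between Control and SCI-inosine. Fn1 was 1.76-fold lower in SCI-vehicle than in Control (log2 fold change -0.81, SE 0.13), with an unadjusted p of 9.70e-05 that ranked 8 of 15738 genes. Its adjusted p was 0.191 by edgeR (0.00% of all genes passed) and 2.36e-06 by DESeq2. With a covariate for the estimated share of the other tissue, chosen after seeing the data, the log2 fold change was -0.83 (adjusted p = 0.0274 by edgeR). DESeq2 and this covariate were the only 2 of 18 alternative runs that passed. With a library left out, the adjusted p by edgeR was 0.105 to 0.606. SCI-inosine was 1.72-fold above SCI-vehicle (log2 fold change 0.78, SE 0.13), ranking 3 by p, with an adjusted p of 0.551 by edgeR and 1.17e-05 by DESeq2. Against Control, the mucosa of SCI-inosine rats differed by -0.03 on the log2 scale (95% interval -0.32 to 0.26).

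In detrusor, where its levels were higher, Fn1 did not follow that order. It had 2801, 1532 and 2542 CPM for Control, 1819, 2662 and 2549 CPM in SCI-vehicle, and 3627, 1943 and 2026 CPM in SCI-inosine. The 3 groups overlapped, and the log2 fold change of SCI-vehicle against Control was 0.05 (95% interval -0.59 to 0.69).

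Gelatinase A, a collagenolytic and gelatinolytic protease, is encoded by Mmp2. Its mean level lay above Control in detrusor of both SCI groups and below Control in mucosa of SCI-vehicle rats. None of these changes passed edgeR's adjusted p. In detrusor, Mmp2 had 252, 256 and 418 CPM for Control, 412, 585 and 691 CPM in SCI-vehicle, and 446, 589.6 and 555 CPM in SCI-inosine. All SCI-inosine libraries lay above Control, whereas the lowest SCI-vehicle library, replicate 1, lay just under the highest Control library. Against Control, Mmp2 was 1.84-fold higher in SCI-vehicle detrusor (log2 fold change 0.88, SE 0.24, adjusted p = 0.204 by edgeR and 0.0256 by DESeq2). Without the SCI-vehicle library whose estimated share of the other tissue was 25.9%, the log2 fold change was 1.06 (adjusted p = 0.190 by edgeR). In SCI-inosine detrusor it was 0.78 (SE 0.24, adjusted p = 0.221 by edgeR and 0.0535 by DESeq2).

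In mucosa, Mmp2 had 599, 740.2 and 647 CPM for Control, 441, 411 and 430.0 CPM in SCI-vehicle, and 429.8, 602 and 703 CPM in SCI-inosine. The SCI-vehicle libraries were all below Control, and 1 of the SCI-inosine libraries was within their range. The log2 fold change was -0.66 (SE 0.19, adjusted p = 0.353) for SCI-vehicle against Control and 0.45 (SE 0.19, adjusted p = 0.881) for SCI-inosine against SCI-vehicle. The change with injury differed between the tissues by -1.50 on the log2 scale (mucosa minus detrusor, SE 0.32, unadjusted p = 0.000231, adjusted p = 0.0807 by edgeR and 0.00221 by DESeq2). Of 24 alternative runs, 5 passed an adjusted p of 0.05, with DESeq2 among them. By edgeR it passed without detrusor Control replicate 3 (adjusted p = 0.0214) or without detrusor SCI-vehicle replicate 1 (adjusted p = 0.0352). It also passed by edgeR with no filter on low counts (adjusted p = 0.0361) and with the replicate number as a block (adjusted p = 0.0246). The other alternative runs did not pass, and with a library left out the adjusted p by edgeR reached 0.274.

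TIMP-1, the secreted inhibitor of metalloproteinases, is encoded by Timp1, which overlaps Syn1 in the RefSeq annotation. Its detrusor libraries had 26.7, 20.1 and 45.3 CPM for Control, 37.4, 72.1 and 49.4 CPM in SCI-vehicle, and 43.5, 52.5 and 34.4 CPM in SCI-inosine. Here too the lowest SCI-vehicle library was replicate 1, and the highest Control library, replicate 3, lay within both SCI groups. In mucosa, Timp1 had 26.0, 28.3 and 22.9 CPM for Control, 19.98, 14.9 and 23.0 CPM in SCI-vehicle, and 23.3, 20.9 and 29.5 CPM in SCI-inosine. The mucosa groups overlapped by a narrow margin in SCI-vehicle and Control. SCI-vehicle against Control gave a log2 fold change of 0.81 (SE 0.31, adjusted p = 0.312) in detrusor and -0.45 (SE 0.20, adjusted p = 0.485) in mucosa. The difference between these changes was -1.22 (SE 0.40, adjusted p = 0.283).

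The promoter of Timp1 in the RefSeq table of the GRCr8 build, chrX:3771073-3771372 on the minus strand, is shown because Timp1 was the member whose tissue difference went from not called in Control to called after SCI, as given further on. It covers 250 bases before and 50 after the start and has 61.3% G and C. A set of 6 motifs was searched on both strands, namely the TATA box core (TATAAA), the CCAAT box, the GC box (GGGCGG), the AP-1 site (TGANTCA), the TEAD site (GGAATG) and a SMAD half-site (CAGAC). Capitals mark matches to the TATA, AP-1, TEAD and SMAD motifs, none of which overlap each other here.
Timp1: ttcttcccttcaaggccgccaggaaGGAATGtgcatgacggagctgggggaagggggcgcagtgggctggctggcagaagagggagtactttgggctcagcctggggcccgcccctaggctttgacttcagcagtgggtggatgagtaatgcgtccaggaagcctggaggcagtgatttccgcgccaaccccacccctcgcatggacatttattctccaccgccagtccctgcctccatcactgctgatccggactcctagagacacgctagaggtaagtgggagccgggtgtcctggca
The window holds 1 GGAATG and, in lower case, 1 GGGCGG on the reverse strand. Of 33469 promoters of the same length, 14.2% hold GGAATG and 33.1% hold GGGCGG.

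Lysyl oxidase, which crosslinks collagen and elastin, is encoded by Lox. Its detrusor libraries had 36.4, 36.7 and 50.3 CPM for Control, 59.7, 48.9 and 85.6 CPM in SCI-vehicle, and 86.5, 56.6 and 49.3 CPM in SCI-inosine. In both SCI groups 1 library lay under the highest Control library and 2 above it. In mucosa, Lox had 56.3, 52.8 and 67.4 CPM for Control, 44.8, 30.9 and 68.7 CPM in SCI-vehicle, and 67.7, 93.0 and 64.0 CPM in SCI-inosine. The mucosa groups overlapped, and SCI-vehicle replicate 3 was the highest of its group for Lox as it was for Col1a1 and Col3a1. The log2 fold changes against Control in detrusor were 0.68 (SE 0.25, adjusted p = 0.306) in SCI-vehicle and 0.65 (SE 0.25, adjusted p = 0.316) in SCI-inosine. In mucosa, SCI-inosine differed from SCI-vehicle by 0.66 (SE 0.27, adjusted p = 0.881).

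The cytokine TGF-β1, an inducer of collagen and fibronectin synthesis, is encoded by Tgfb1. Its detrusor libraries had 31.3, 38.1 and 42.1 CPM for Control, 43.8, 38.4 and 41.5 CPM in SCI-vehicle, and 44.6, 46.6 and 55.3 CPM in SCI-inosine. The SCI-inosine libraries lay above all other detrusor libraries. The log2 fold change of SCI-inosine was 0.40 (SE 0.16, adjusted p = 0.319) against Control and 0.23 (SE 0.16, adjusted p = 0.950) against SCI-vehicle. In mucosa, Tgfb1 had 63.7, 80.5 and 74.0 CPM for Control, 62.9, 56.0 and 73.9 CPM in SCI-vehicle, and 58.5, 67.0 and 86.8 CPM in SCI-inosine. The mucosa groups overlapped, and every mucosa library was above every detrusor library. The order by mean ran from mucosa Control (72.7 CPM) to detrusor Control (37.2 CPM), with gaps between the ranges of mucosa SCI-vehicle and detrusor SCI-inosine and of detrusor SCI-inosine and detrusor SCI-vehicle.

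CCN2, a matricellular protein induced by TGF-β and by mechanical load, is encoded by Ccn2, the member with the widest spread between replicates. Its detrusor libraries had 449, 43.7 and 35.4 CPM for Control, 113, 240.2 and 56.6 CPM in SCI-vehicle, and 106, 87.0 and 149 CPM in SCI-inosine. Control replicate 1 was 12.7-fold above Control replicate 3 and was the highest of all 18 libraries. In mucosa, Ccn2 had 77.4, 25.3 and 61.2 CPM for Control, 72.5, 35.6 and 57.8 CPM in SCI-vehicle, and 56.4, 188 and 204 CPM in SCI-inosine. Of the 3 SCI-inosine mucosa libraries, 2 were above every other mucosa library, and the remaining one was within the other groups. The log2 fold change of SCI-inosine in mucosa was 1.46 (SE 0.51) both against Control (adjusted p = 0.896) and against SCI-vehicle (adjusted p = 0.881). In detrusor, the log2 fold change of SCI-vehicle against Control was -0.36 (SE 0.81) with all libraries and 1.80 (adjusted p = 0.463) without Control replicate 1, and that of SCI-inosine was -0.63 and 1.52.

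The promoter of Ccn2 (GRCr8, chr1:22624565-22624864, minus strand) is shown because this member varied most between libraries. Capitals mark the same 4 motifs as for Timp1.
Ccn2: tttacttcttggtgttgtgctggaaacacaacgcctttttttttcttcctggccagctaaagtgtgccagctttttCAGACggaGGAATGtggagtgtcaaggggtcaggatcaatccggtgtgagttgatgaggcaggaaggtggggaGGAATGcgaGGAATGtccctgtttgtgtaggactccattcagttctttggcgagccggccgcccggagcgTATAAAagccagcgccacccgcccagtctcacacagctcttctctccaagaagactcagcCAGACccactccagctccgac
It holds 3 matches to GGAATG, which begin 166, 101 and 92 bases before the start, and 0.0956% of the 33469 promoters hold at least 3. That threshold was the number seen here, and no share for several matches was computed for the other motifs. GGGCGG, in lower case, occurs 2 times here on the reverse strand and at least once in 33.1% of promoters. TATAAA begins 31 bases before the start and occurs in 14.2% of promoters. CAGAC occurs 2 times here and at least once in 50.1% of promoters. The matches describe these letters only, and binding was not measured.

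In detrusor, the 8 members were then counted against all genes. SCI-vehicle against Control called 0 members by edgeR's adjusted p, where 0.0763% of all genes passed. At an unadjusted p under 0.05 it called 3 (Mmp2, Timp1 and Lox, all higher), beside 7.56% of all genes called in that direction, and DESeq2 called 1 (Mmp2), beside 1.31%. No member was without overlap between the groups, where 20.5% of genes were. SCI-inosine against Control called 0 by edgeR's adjusted p (0.293% of genes), 3 at the unadjusted threshold (Mmp2, Lox and Tgfb1, all higher, beside 7.79% of genes) and 0 by DESeq2 (2.63%). Mmp2 and Tgfb1 did not overlap, beside 9.62% of genes in that direction. SCI-inosine against SCI-vehicle called 0 members by edgeR's adjusted p (0.00% of genes), 0 at the unadjusted threshold (4.38%) and 0 by DESeq2 (0.0637%), and 1 member, Tgfb1, did not overlap (4.93% of genes in that direction).

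In mucosa, SCI-vehicle against Control called 0 members by edgeR's adjusted p, as it did of all genes (0.00%). At the unadjusted threshold 5 members were called (Col1a1, Col3a1, Fn1, Mmp2 and Timp1), all lower, beside 5.55% of all genes in that direction. DESeq2 called Col3a1 and Fn1, beside 0.391% of genes, and Col3a1, Fn1 and Mmp2 did not overlap, beside 7.61% of genes in that direction. SCI-inosine against Control called 0 by edgeR's adjusted p (0.00% of genes), 1 at the unadjusted threshold (Ccn2, higher, beside 2.36%) and 0 by DESeq2 (0.137%), with overlap in all 8 (9.90% of genes did not overlap). SCI-inosine against SCI-vehicle called 0 by edgeR's adjusted p (0.00635% of genes). At the unadjusted threshold it called 5 (Col3a1, Fn1, Mmp2, Lox and Ccn2), all higher, beside 3.62% of all genes in that direction. DESeq2 called Fn1, beside 0.0935%, and Col3a1 and Fn1 did not overlap, beside 4.71%. In bulk tissue, fewer cells of a type that makes matrix and less RNA per such cell cannot be told apart.

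**Figure D2:**
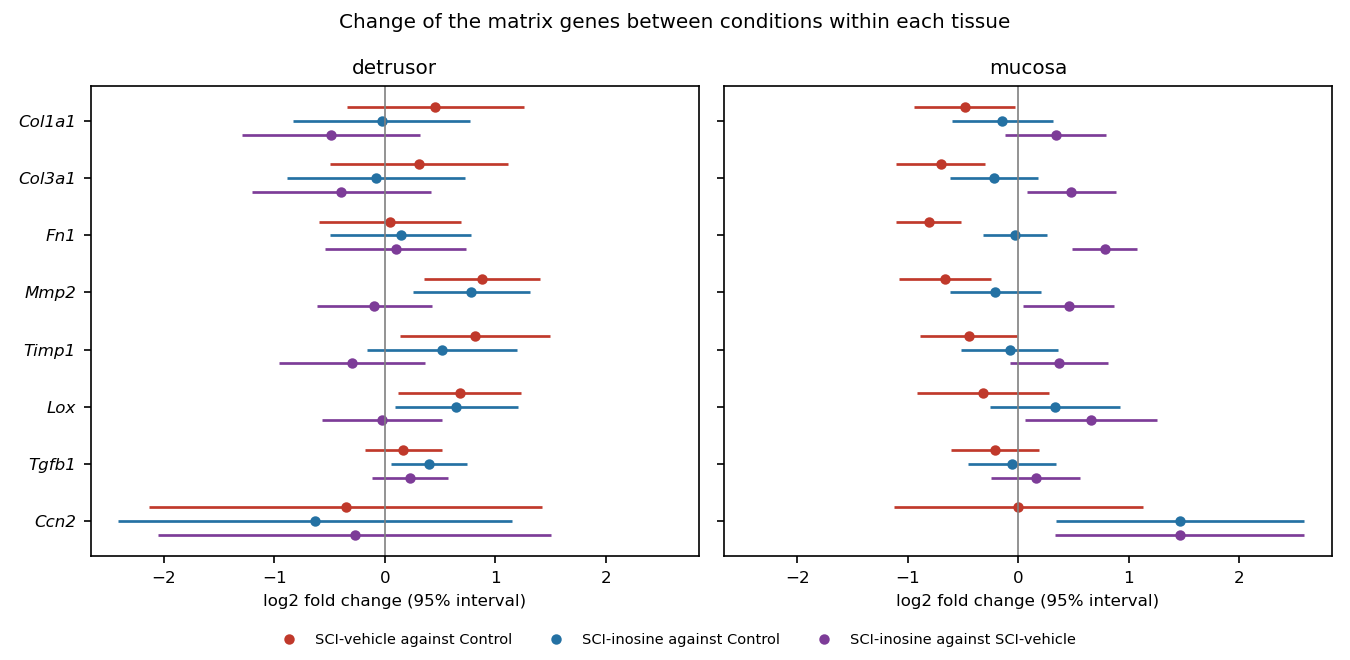
Log2 fold change of each tested member for the 3 comparisons of conditions in detrusor (left) and mucosa (right), with points for the fitted value and lines for its 95% interval. Fn1 in mucosa lies at -0.81 for SCI-vehicle against Control, at 0.78 for SCI-inosine against SCI-vehicle and at -0.03 for SCI-inosine against Control.

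The test of whether the change differed between the tissues called 0 members by edgeR's adjusted p in each of the 3 comparisons. For SCI-vehicle against Control, 0.121% of genes passed, and at the unadjusted threshold 4 members did (Fn1, Mmp2, Timp1 and Lox), all with the lower change in mucosa, beside 6.51% of genes in that direction. DESeq2 called Mmp2 there, beside 1.37%. For SCI-inosine against Control the counts were 0 by edgeR's adjusted p (0.00% of genes), 1 unadjusted (Mmp2, beside 5.94% of genes in that direction) and 0 by DESeq2 (0.552%). For SCI-inosine against SCI-vehicle they were 0 (0.00%), 0 unadjusted (3.87%) and 0 by DESeq2 (0.00%).

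Between the tissues, Fn1 was lower and Tgfb1 higher in mucosa than in detrusor in all 3 conditions. In Control, 4 of 8 members were called by edgeR's adjusted p, beside 44.5% of all genes, so the share of members was close to that of genes at large. Fn1 was 2.03-fold lower in mucosa (log2 difference -1.02, SE 0.26, adjusted p = 0.00367), Tgfb1 1.96-fold higher (0.97, SE 0.16, adjusted p = 0.000158) and Mmp2 2.15-fold higher (1.10, SE 0.23, adjusted p = 0.000881). Col1a1 was 1.91-fold higher (0.93, SE 0.34, adjusted p = 0.0360), and its adjusted p was between 0.0602 and 0.154 when detrusor Control replicate 1 or 2 or any of the 3 mucosa Control libraries was left out. Ccn2 had a log2 difference of -1.69 (adjusted p = 0.0938), which was 0.46 without detrusor Control replicate 1.

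In both SCI groups Timp1 joined the members called, though its difference from Control in this respect did not pass the test given above for SCI-vehicle. In SCI-vehicle, 3 of 8 were called, beside 47.1% of all genes. Fn1 was 3.59-fold lower in mucosa (log2 difference -1.84, SE 0.26, adjusted p = 3.85e-05), Timp1 2.75-fold lower (-1.46, SE 0.29, adjusted p = 0.000611) and Tgfb1 1.56-fold higher (0.64, SE 0.16, adjusted p = 0.00430). Without detrusor SCI-vehicle replicate 1, the library with the highest estimated share of the other tissue, 5 members were called. The share of all genes called was not recorded for runs with a library left out, so these counts are not read as results about the members. In SCI-inosine, the same 3 genes were called, beside 42.7% of all genes. Fn1 had a log2 difference of -1.18 (SE 0.26, adjusted p = 0.00159), Timp1 of -0.82 (SE 0.28, adjusted p = 0.0275) and Tgfb1 of 0.54 (SE 0.16, adjusted p = 0.0138). Without detrusor SCI-inosine replicate 2, the library with the fewest genes counted, only Fn1 was called, with Timp1 at an adjusted p of 0.0703 and Tgfb1 at 0.0877. The call of Timp1 in SCI-inosine was also lost without detrusor replicate 1 (adjusted p = 0.0507), mucosa replicate 1 (0.0700) or mucosa replicate 2 (0.0980), and that of Tgfb1 without detrusor replicate 1 (0.0501) or mucosa replicate 3 (0.0971). Mmp2 had a log2 difference of -0.40 (adjusted p = 0.157) in SCI-vehicle and of 0.13 (adjusted p = 0.676) in SCI-inosine, against 1.10 in Control.

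**Figure D3:**
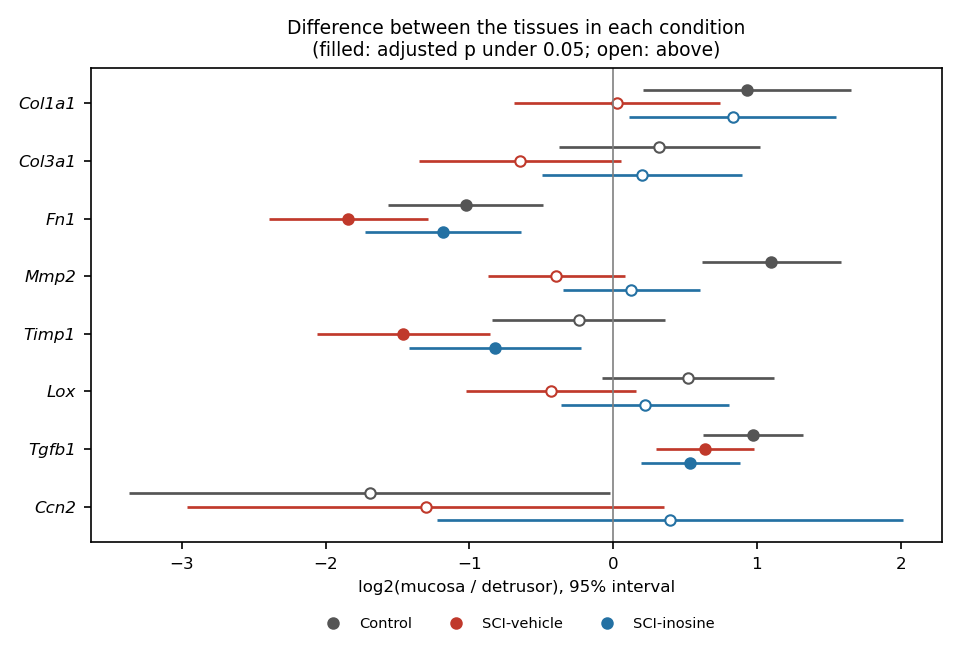
Log2 ratio of mucosa to detrusor for each tested member in Control, SCI-vehicle and SCI-inosine, with 95% intervals, filled where the adjusted p was under 0.05. Fn1 lies at -1.02, -1.84 and -1.18 and Tgfb1 at 0.97, 0.64 and 0.54, filled in all 3 conditions.

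Ratios of members within a library, which do not depend on the scaling between libraries, were computed after the values had been seen and are given as a description. Col3a1 CPM divided by Col1a1 CPM was 1.15 to 1.45 in the 9 detrusor libraries and 0.743 to 0.999 in the 9 mucosa libraries. Mmp2 divided by Timp1 was 8.11 to 16.1 in detrusor and 18.4 to 28.8 in mucosa. Fn1 as a percent of Col1a1 was 19.2% to 36.1% in detrusor and 4.36% to 8.67% in mucosa. None of the 3 ratios overlapped between the tissues, and the tissue order held in every condition. Lack of overlap between the tissues was common for single genes, at 50.3% to 60.7% of all genes when each condition was taken separately. No such share was computed for ratios of other genes, so the separation is not read as special to these members. Fn1 alone already separated the tissues, with at most 1310 CPM in mucosa libraries and at least 1532 CPM in detrusor libraries. The ratio of the collagens in detrusor was 1.42 ± 0.032 (SD, n = 3) in Control, 1.25 ± 0.13 (SD, n = 3) in SCI-vehicle and 1.38 ± 0.11 (SD, n = 3) in SCI-inosine. The highest detrusor SCI-vehicle library (1.399) was above the lowest detrusor Control library (1.389). In mucosa this ratio was 0.927 ± 0.060 (SD, n = 3) in Control, 0.809 ± 0.057 (SD, n = 3) in SCI-vehicle and 0.882 ± 0.10 (SD, n = 3) in SCI-inosine. The ratio of protease to inhibitor in detrusor was 10.5 ± 2.0 (SD, n = 3) in Control, 11.0 ± 2.9 (SD, n = 3) in SCI-vehicle and 12.5 ± 3.2 (SD, n = 3) in SCI-inosine, where Mmp2 and Timp1 were both above Control.

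**Figure D4:**
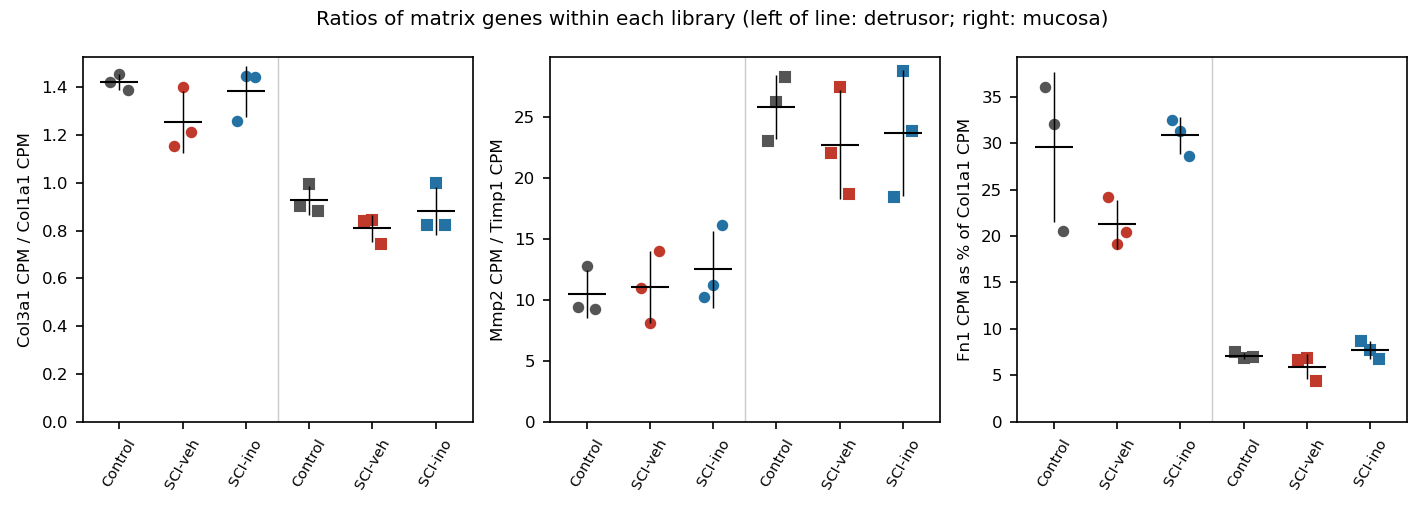
Ratio of Col3a1 to Col1a1, of Mmp2 to Timp1 and of Fn1 to Col1a1 (in percent) in every library, on linear axes from 0, with the mean (horizontal bar) and 1 SD (vertical bar) of 3 libraries. The detrusor and mucosa libraries do not overlap in any of the 3 panels, with 1.15 to 1.45 against 0.743 to 0.999 in the first.

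The likeness of patterns was measured as the root-mean-square difference of log2 CPM over the 18 libraries after each gene's mean was removed. For Col1a1 the closest member was Col3a1, at 0.34, which ranked 12 of 15739 genes (median of all genes 0.71). For Col3a1 the closest member was Col1a1, which ranked 44. The closest member to Fn1 was Timp1, at 0.47 (rank 912), and the closest to Lox was Mmp2, at 0.41 (rank 263). The closest member to Ccn2 was Fn1, at 1.04 (rank 2075), where the median of all genes was 1.18, since the measure grows with a gene's own spread.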

How the data were processed

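RNA was measured in 18 rat bladder libraries, 3 in each of 6 groups taken from the labels. The authors depleted ribosomal RNA, made stranded libraries and deposited read counts per gene, without normalization; submitters' processing notes name Trim Galore 0.6.10, STAR 2.7.10a, featureCounts 2.0.3 and Rnor_6.0. The deposited counts cover 32754 genes, and 0 columns were unused. Total counts were 3255012 to 6810496 (median 5030414). Genes above 1 CPM in 3 or more libraries (15740) were scaled by TMM and tested with edgeR 4.0.16's quasi-likelihood test (two-sided) in R 4.3.3, adjusted by the Benjamini-Hochberg method over all genes of a comparison. Conditions were fitted within each tissue (9 libraries), whereas tissues and differences between tissues were fitted in one model of 6 groups. The biological coefficient of variation was 26.5% in detrusor, 19.99% in mucosa and 23.1% in the joint model, which sets the precision. The scripts were tested on simulated data, with planted changes larger than any change of a member between conditions within a tissue. That test does not give the power for changes of the size seen here. The study's methods name DESeq2, which was an alternative here (1.42.0), with other filters, scalings, a replicate block, a tissue-share covariate and each library left out.

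The 9 members, all described, and the wider lists were chosen with earlier results of these data known. The names of the 9 identifiers rest on that list. The other identifiers were not paired with names, so the wider matrix lists and the cell type markers were not run, and genes of most similar pattern outside the members are not named. Transcript lengths were not used, so a ratio of 2 members is compared only between libraries and is no ratio of transcript numbers. Promoters came from RefSeq (GRCr8) and 4 of 9 members matched by symbol (Ccn2, Col1a2, Tgfb1 and Timp1). Replicates of a group differed by more than sampling noise (chi-square per degree of freedom at least 4.15).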

Additional observations from a re-analysis of the deposited data

Results flagged for a closer look

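A total of 6 differences between the tissues are listed because every library of one tissue lay above, and every library of the other below, the mean of its reference group. Their values are the change in mucosa minus the change in detrusor on the log2 scale, each with the adjusted p of edgeR's quasi-likelihood test of the difference, which none passed. For SCI-vehicle against Control, Mmp2 had a difference of -1.50 (adjusted p = 0.0807) and Timp1 of -1.22 (adjusted p = 0.283), with detrusor above and mucosa below Control. For SCI-inosine against Control, Ccn2 had a difference of 2.09 (adjusted p = 0.519), with mucosa above and detrusor below Control. Without detrusor Control replicate 1 the Ccn2 difference changed sign. For SCI-inosine against SCI-vehicle, Col1a1 had a difference of 0.80, Col3a1 of 0.85 and Timp1 of 0.64 (each with an adjusted p of 0.99985), with mucosa above and detrusor below SCI-vehicle. The 3 last comparisons share their SCI-vehicle libraries with the first 2.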

How the results depend on the processing

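With 3 libraries a group and this spread, the adjusted threshold was passed by few genes within a tissue, and at 0 or 1 read a library the Col1a2 row could not be tested. The 10 differences called between tissues (4 in Control and 3 in each SCI group, over 5 genes) kept their direction in every alternative run. At an unadjusted p under 0.05 the number of members called was 3 for SCI-vehicle and 3 for SCI-inosine against Control in detrusor, 5, 1 and 5 in mucosa for SCI-vehicle against Control, SCI-inosine against Control and SCI-inosine against SCI-vehicle, and 4 and 1 for the difference between tissues in SCI-vehicle and SCI-inosine against Control. DESeq2 called 1 for SCI-vehicle against Control in detrusor, 2 in mucosa, 1 for SCI-inosine against SCI-vehicle in mucosa and 1 for the difference between tissues with SCI-vehicle. The last count was also 1 with no filter, and 0 to 1 with a library left out. A covariate for the share of the other tissue, chosen after seeing the data, gave 1 for SCI-vehicle against Control in mucosa. Leaving out a library gave 3 to 5 members between tissues in Control, 3 to 5 in SCI-vehicle and 1 to 4 in SCI-inosine, with no share of all genes recorded for these runs. In SCI-inosine, Tgfb1 also lost its call with no filter (adjusted p = 0.0568) and with only the groups compared (0.0527), and Col1a1 did in Control with only the groups compared (0.0856). The cause of these changes was not tested.

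The replicate numbers were not taken to pair the samples, since the sources do not say what a number marks and not every correlation was over 0.1. The replicate block gave each number a common effect over all groups in a fit. It therefore did not pair detrusor and mucosa by bladder within a condition, and such pairing was not tested. Deviations of same-numbered libraries correlated between -0.257 and 0.464 within a tissue (7 of 18 pairs over 0.1) and between 0.00559 and 0.233 across tissues of one condition (5 of 9), all positive. With the replicate block, the count for the difference between tissues with SCI-vehicle was 1 (Mmp2, adjusted p = 0.0246), and 4 values changed sign: Ccn2 in detrusor for SCI-inosine (0.087) and SCI-vehicle (0.19) against Control, Col1a1 in detrusor for SCI-inosine against Control (0.031) and Col1a1 between tissues in SCI-vehicle (-0.015).

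Other changes of sign were in log2 values that were not called. Col1a1 between tissues in SCI-vehicle was -0.060 with filterByExpr, -0.072 with no filter and -0.073 with only the groups compared. Ccn2 in mucosa for SCI-vehicle against Control was -0.0041 with no filter and -0.0081 with only the groups compared. With the covariate, Col1a1 was 0.21 and Col3a1 0.21 in detrusor, and Tgfb1 0.075 in mucosa, for SCI-inosine against Control. With the mean of both SCI groups against Control, Lox in mucosa was 0.0062.

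Leaving out each library in turn changed the sign of 26 values. Ccn2 ranged in detrusor from -1.04 to 1.80 for SCI-vehicle against Control, -1.10 to 1.52 for SCI-inosine against Control and -0.65 to 0.41 for SCI-inosine against SCI-vehicle, in mucosa from -0.35 to 0.31 for SCI-vehicle against Control, between tissues from -2.18 to 0.46 in Control, and in the difference of changes from -1.76 to 1.08 (SCI-vehicle) and -0.061 to 2.57 (SCI-inosine against Control). For SCI-inosine against Control in detrusor the ranges were -0.32 to 0.39 (Col1a1), -0.35 to 0.31 (Col3a1) and -0.20 to 0.31 (Fn1), in mucosa -0.10 to 0.072 (Fn1), -0.24 to 0.084 (Tgfb1) and -0.25 to 0.013 (Timp1), and in their difference -0.50 to 0.19 (Col1a1), -0.50 to 0.15 (Col3a1) and -0.33 to 0.19 (Fn1). For SCI-inosine against SCI-vehicle they were -0.25 to 0.25 (Fn1), -0.30 to 0.22 (Lox) and -0.27 to 0.077 (Mmp2) in detrusor, -0.027 to 0.30 (Tgfb1) in mucosa and -0.28 to 0.019 (Tgfb1) in the difference. Fn1 in detrusor for SCI-vehicle against Control ranged from -0.18 to 0.22. Between tissues the ranges were -0.48 to 0.14 (Timp1, Control), -0.24 to 0.20 (Col1a1, SCI-vehicle), -0.0094 to 0.41 (Col3a1, SCI-inosine) and -0.039 to 0.30 (Mmp2, SCI-inosine).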
